A study of Rattus norvegicus with 18 samples.

Results

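Transcripts of the collagen chain genes were followed in 9 colonies of fetal rat calvaria cells, each grown from 1 sorted cell. A member was any probe set on either array whose only annotated symbol was Col, a number, a and a number. The rule took 54 probe sets of 37 genes, out of 13811 genes with a symbol of their own on the pair of arrays. Calvaria is the flat bone of the skull vault, a source of bone-forming cells and of their mesenchymal precursors. The submitters had typed the colonies by marker transcripts. Osteocalcin is secreted by mature osteoblasts into bone matrix, and adipsin is a serine protease that fat cells release. There were 3 colonies (I, II and III) with osteocalcin alone ("osteocalcin"), 3 with osteocalcin and adipsin ("both") and 3 with neither marker ("neither"). All 9 had been kept for 4 weeks at 37 °C and 5% CO2 in α-MEM with serum, ascorbic acid, BGP and Dex, and 100 to 300 cells of a single colony gave the RNA. Ascorbic acid is a cofactor of the enzymes that hydroxylate collagen, so every group, the neither colonies included, received it. No age, strain or sex of the rats is used here, and each type is represented by 3 clonal colonies.

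Collagens are trimeric proteins whose chains wind into a triple helix. Fibrillar collagens (types I, II, III, V, XI, XXIV and XXVII) form the fibrils that give bone, skin, tendon and cartilage their strength. Type I, built of α1 and α2 chains, makes up most of the organic matrix of bone. Network collagens (IV, VIII and X) form sheets such as basement membranes, the FACIT collagens (among them IX, XII and XIV) sit on the surface of fibrils, and type VI forms beaded microfibrils around cells. Chains of 1 trimer are encoded by separate genes, often on different chromosomes, and have to be made together.

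The values are MAS5 signals, the brightness of a probe set on a linear scale, after each array was rescaled to the same trimmed mean of 1500. Differences are given on the scale log2(signal + pseudocount), with pseudocounts of 238.7 on chip A (RAE230A) and 336.2 on chip B (RAE230B), which understates changes of dim probe sets. As deposited, the trimmed mean was already 1500 on every array but that of osteocalcin I on chip A, at 64.4. Over the 100 probe sets carried by both chips, 8 of the 9 chip A arrays resembled most the chip B array from their colony. The exception was osteocalcin III, whose chip A array was closer to chip B of both III (r = 0.551) than to its own (r = 0.403). The log2 ratio of the 3′ to the 5′ Gapdh probe set, a sign of how complete the labelled transcripts were, lay at 1.06 and 1.08 in neither II and between 3.11 and 4.04 on the other arrays. The same ratio for Actb did not set neither II apart on chip A, at 3.55 among 2.51 to 3.87, and on chip B was the highest there, at 5.60 against 2.41 to 4.09. The transcripts that defined the types were dim: Bglap (osteocalcin) read 20.9 to 299 and Cfd (adipsin) 113 to 522, below the array median on every array. Of the adipocyte markers 0 of 7 exceeded the array median in all 9 colonies and the summed signal of the list ran from 1974 to 5287. Of the osteoblast markers 1 of 6 did so (Spp1, osteopontin), of the chondrocyte markers 0 of 7, of the smooth muscle markers 3 of 5 (Acta2, Tagln, Cnn1), of the endothelial markers 1 of 4 and of the macrophage and osteoclast markers 0 of 5. In bulk RNA of a colony, fewer cells that make a collagen and less of its RNA per cell cannot be told apart.

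Of the 37 genes, 27 had a probe set above the array median on at least 3 arrays and entered the test, with 39 of the 54 probe sets. The tested genes were 9 of 11 fibrillar, 5 of 8 network, 6 of 8 FACIT, 3 of 3 type VI and 2 of 2 multiplexin genes, 1 of 3 transmembrane genes (Col23a1) and Col26a1, a collagen outside these classes. Because a gene could pass by being bright in few colonies, counts over these 27 describe the tested genes and not the family. The genes with no probe set that passed were Col10a1, the hypertrophic cartilage collagen, Col9a1 of cartilage fibrils, Col7a1 of the anchoring fibrils of skin, Col13a1 and Col17a1, which span the cell membrane, and Col4a4, Col4a6, Col5a3, Col19a1 and Col27a1. In 20 genes at least 1 probe set exceeded the array median in all 9 colonies. The markers proposed for collagen-producing mesenchymal cells, Col1a1 and Col1a2, were among these 20, whereas Col6a3 exceeded the median on 6 arrays.

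Type I collagen transcripts were bright in every colony and differed more among colonies of a type than between types. Col1a1, the α1 chain, read 57440, 23909 and 39214 in osteocalcin I to III, 82952, 65852 and 23557 in both I to III, and 63876, 190161 and 16949 in neither I to III. The neither colonies held the highest and the lowest of the 9 values, and all types overlapped. Col1a2, the α2 chain, read 37157, 10669 and 23903 in osteocalcin, 90527, 94358 and 18443 in both, and 40037, 72817 and 12322 in neither colonies. Colonies both I, both II and neither II were again the highest, and both III lay within the range of the osteocalcin colonies. Col1a2 was higher in both than in osteocalcin colonies by 1.34 on the log2 scale (SE 0.74, adjusted p = 0.9998 by limma) and Col1a1 by 0.42 (SE 0.751, adjusted p = 0.9998), so neither passed the test. Types accounted for 6.88% of the variance of the log2 level of Col1a1 over the 9 colonies and 24.1% of that of Col1a2. The median over all probe sets tested was 24.4%, so the share of Col1a2 was an ordinary one. The second probe sets of these genes correlated with the first over the colonies, with r = 0.786 for Col1a1 and 0.939 for Col1a2. The second of Col1a1 was highest in both II (34670) and lowest in both III (3160), with 23.4% of its variance between types. It gave 1.405 between both and osteocalcin (SE 0.778, adjusted p = 0.9998 by limma). Between both and neither it gave 0.473, against -0.227 on the first.

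The annotated promoter window of Col1a2 is shown because this gene is a marker of the set and its level followed that of its partner chain (below). RefSeq (build GRCr8) places the window of 250 bases before to 50 after the start at chr4:33518307-33518606 on the plus strand. Capitals mark CCAAT, read here on the opposite strand as ATTGG, and TATAAA.
Col1a2: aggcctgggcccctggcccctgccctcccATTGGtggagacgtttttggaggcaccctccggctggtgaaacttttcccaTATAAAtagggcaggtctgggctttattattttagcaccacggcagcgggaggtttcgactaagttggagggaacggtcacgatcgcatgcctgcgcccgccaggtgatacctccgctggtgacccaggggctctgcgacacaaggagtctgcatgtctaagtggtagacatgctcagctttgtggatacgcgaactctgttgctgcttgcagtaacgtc
The matches begin at position -221 (CCAAT) and -170 (TATAAA) of the printed strand, with the annotated start base as 1 and the base before it as -1. The last 50 printed bases, from that start on, open with ATG, so it may be where the coding sequence begins. The positions are therefore not to be read as distances to the start of transcription. Searched on both strands, CCAAT occurred in 37.5% of 33469 rat promoter windows of this length, TATAAA in 14.2% and GGGCGG (a GC box) in 33.1%. Among the 19 tested collagen genes with a window in the table, 4 held CCAAT, 12 GGGCGG and 1, Col1a2 itself, TATAAA. Col1a1, Col2a1, Col3a1, Col6a2, Col9a3, Col12a1, Col14a1 and Col22a1 are the tested genes without a window there.

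The other fibrillar chains spread less between types than between colonies as well. Col3a1, whose homotrimers share fibrils with type I, read 55030, 36939 and 54603 in osteocalcin, 69221, 67202 and 55056 in both, and 62488, 82918 and 27276 in neither colonies. All 3 both colonies lay above all 3 osteocalcin colonies, by as little as the gap from 55030 to 55056, and the neither colonies covered the whole range. The difference between both and osteocalcin was 0.40 (SE 0.448, adjusted p = 0.9998). Col5a2, a chain of the type V collagen that nucleates fibrils, ranged from 8790 in neither III to 93817 in neither II, and types accounted for 0.254% of its variance. Its partner Col5a1 ran from 4772 in both III to 15389 in both I. Col11a1, a type XI chain of cartilage fibrils also found in bone cells, read 86081, 16855 and 33130 in osteocalcin, 106599, 69285 and 12372 in both, and 41774, 38899 and 9956 in neither colonies on its chip B probe set. The colony order resembled that of its dimmer chip A probe set (r = 0.748), the one used in counts over genes. Col24a1, a minor fibrillar chain known in the mouse from developing bone, was flat in the both colonies, at 2045, 2119 and 1936, below all neither colonies at 3170, 2202 and 3026, with osteocalcin colonies at 1220, 4907 and 4023. Its difference between both and neither was -0.39 (SE 0.463, adjusted p = 0.781).

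Col2a1, the type II collagen of cartilage, had 3 probe sets that disagreed. The chip B probe set read 946, 1409 and 1420 in osteocalcin, 968, 755 and 638 in both, and 1962, 1703 and 2734 in neither colonies, named here after its values were seen. All 3 neither colonies lay above the other 6, and types accounted for 82.3% of its variance. Its difference between both and neither was -1.12 (SE 0.476, adjusted p = 0.479) and did not pass the test. The tested chip A probe set, at 503 to 1406, gave -0.19 for the same comparison and 5.92% of variance between types, and the remaining one failed the filter.

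Type VI was the class of 3 or more genes with the largest median share of variance between types. This rests on the probe set counted for each gene. Col6a3, the long α3 chain that completes the type VI trimer, read 659, 180 and 798 in osteocalcin, 3354, 4839 and 1792 in both, and 747, 8248 and 1072 in neither colonies. The osteocalcin colonies lay below all both colonies, and neither II was the highest of all 9. Col6a3 was higher in both than in osteocalcin colonies by 2.19 (SE 0.69, unadjusted p = 0.00743, adjusted p = 0.9998 by limma over all probe sets). Its signal in osteocalcin II lay under the pseudocount. The difference was 2.57 with the pseudocount divided by 4 and 1.47 with it multiplied by 4. Against the neither colonies, Col6a3 in osteocalcin colonies differed by -1.60 (SE 0.69, adjusted p = 0.624), which shrank to -0.64 without neither II, and in both colonies by 0.59 (SE 0.69, adjusted p = 0.781), which was 1.55 without it. Its chip B probe set, at 296 to 1909, showed a difference of 0.04 between both and osteocalcin (SE 0.63) and followed the first with r = 0.372.

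Col6a1, the α1 chain, read 4234, 7228 and 5414 in osteocalcin, 14334, 14859 and 5295 in both, and 3715, 6817 and 2416 in neither colonies. Colonies both I and both II stood above the other 7, and both III fell among the osteocalcin colonies. The largest difference of Col6a1 was 1.35 between both and neither (SE 0.467, unadjusted p = 0.013, adjusted p = 0.438). Col6a2, the α2 chain, read 1370, 942 and 1059 in osteocalcin, 3050, 3503 and 1280 in both, and 2386, 1095 and 2505 in neither colonies. The same pair was highest, and the osteocalcin colonies overlapped both III and neither II. The difference between both and osteocalcin was 0.97 (SE 0.416, adjusted p = 0.9998), whereas the second, dimmer Col6a2 probe set gave -0.09 and did not follow the first (r = -0.027). Types accounted for 51.7% of the variance of Col6a1, 45.4% of that of Col6a2 and 50.5% of that of Col6a3. On the other tested probe sets of Col6a2 and Col6a3 the shares were 1.11% and 0.966%. Arrays were also weighted in limma by their fit to the mean of their type, so that a colony unlike its type counts less. With these weights Col6a3 (2.18, adjusted p = 0.0446) and Col6a2 (1.27, adjusted p = 0.0497) passed between both and osteocalcin, where 87 of all probe sets did.

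**Figure D1:**
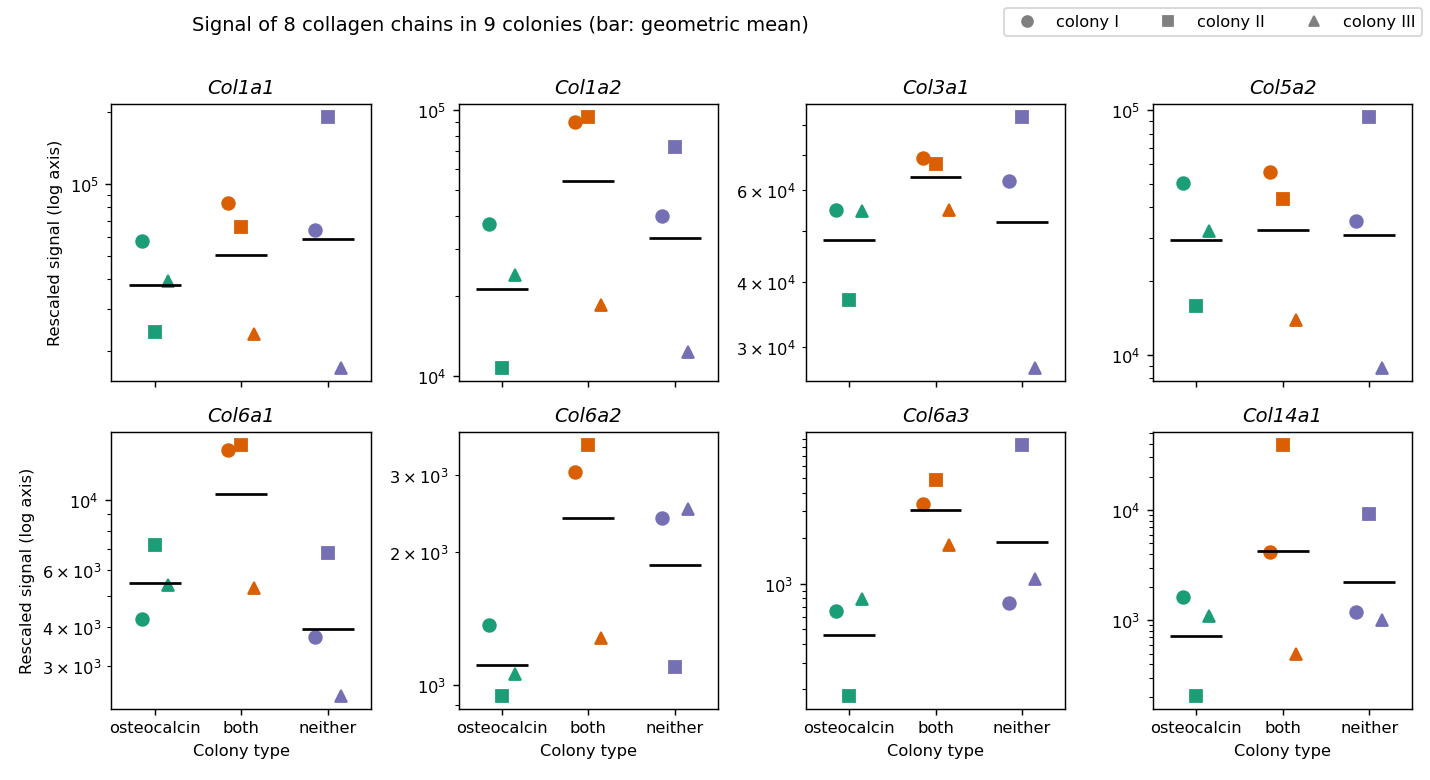
Rescaled signal (log axis) of 8 collagen chains in the 3 colonies of each type, with a marker shape for each colony number and a bar at the geometric mean of the 3. The Col6a3 values of the both colonies, from 1792 to 4839, lie above those of the osteocalcin colonies, from 180 to 798, and neither II at 8248 lies above all.

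On the probe set counted for the gene, all 5 tested network genes had their lowest signal in both III, which for Col4a1 did not hold on its other probe set. Col4a1, 1 of the chains of the common basement membrane collagen, read 12045, 8521 and 12612 in osteocalcin, 22511, 18908 and 6637 in both, and 12641, 23347 and 10520 in neither colonies. Its partner Col4a2 read 7865, 4254 and 6448, then 15703, 13889 and 3919, then 6756, 9266 and 4778. On these probe sets both I, both II and neither II were the 3 highest. A second Col4a1 probe set, also above the median on all 9 arrays, read 9678, 5420 and 9658 in osteocalcin, 12876, 7895 and 6425 in both, and 12396, 4980 and 8513 in neither colonies, with neither II the lowest. Col8a1, a type VIII chain that forms hexagonal lattices, read 36924, 13779 and 21997 in osteocalcin, 42572, 43669 and 3871 in both, and 30548, 60206 and 5916 in neither colonies, a 15.6-fold ratio of the highest to the lowest signal. Col8a2 read 8313, 2864 and 3435, then 11749, 11749 and 802, then 2037, 3062 and 2569. Col4a5, an α5 chain of specialised basement membranes, ran from 1304 in both III to 9360 in osteocalcin I. None of the 5 tested network genes had groups that did not overlap, in any comparison.

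Col4a1 and Col4a2 are neighbours that point away from each other on chromosome 16, with 76 bases between their annotated starts, so a single stretch holds the start regions of both. It is shown because their transcripts moved together on the probe sets counted for the genes (below). The window of Col4a1 in RefSeq (GRCr8) is chr16:84885347-84885646 on the plus strand and shares 176 bases with that of Col4a2 on the minus strand. Capitals mark CCAAT, again as ATTGG, and GGGCGG, which reads CCGCCC on the opposite strand.
Col4a1: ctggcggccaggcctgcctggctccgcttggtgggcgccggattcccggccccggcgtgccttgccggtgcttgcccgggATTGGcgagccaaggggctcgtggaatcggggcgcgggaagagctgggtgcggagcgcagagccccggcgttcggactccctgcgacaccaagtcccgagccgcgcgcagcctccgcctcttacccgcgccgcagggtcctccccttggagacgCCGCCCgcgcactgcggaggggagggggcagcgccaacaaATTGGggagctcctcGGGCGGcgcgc
Counted the same way from the Col4a1 start, CCAAT matches begin at -170 and 25 and GGGCGG matches at -16 and 40. These are matches of letters and were not tested as binding sites.

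FACIT chains ranged from flat to widely variable. Col14a1, which binds fibrils of dense connective tissue, read 1617, 205 and 1097 in osteocalcin, 4139, 38889 and 491 in both, and 1193, 9235 and 1011 in neither colonies. The highest signal was in both II and the types overlapped. The lowest, in osteocalcin II, lay under the pseudocount, so no ratio to it is given. The difference of 2.28 between both and osteocalcin had an SE of 1.16 (adjusted p = 0.9998). A second Col14a1 probe set followed it (r = 0.83), with 14822 in both II and 131 in both III. Col12a1, a related chain on type I fibrils, read 12026, 3753 and 11690, then 16862, 18729 and 3580, then 9120, 6630 and 5118 in the same order of colonies. Here too both III was the lowest and the types overlapped. Col16a1 stayed between 4417 and 12080 and Col22a1 between 1882 and 4529, SDs of 0.41 and 0.38 over the 9 colonies. Col9a3, a type IX chain of cartilage, read 1550, 800 and 408 in both colonies, above 355, 332 and 263 in neither colonies, with osteocalcin colonies at 1016, 149 and 2218. This gave 0.84 between both and neither (SE 0.645, adjusted p = 0.656). Col9a3 exceeded the array median on 3 arrays only. Both III and the neither colonies read near the chip B pseudocount of 336.2, so their order rests on dim signals. Its partner Col9a2, at 462 to 3497, overlapped in every comparison.

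Of the remaining classes, Col15a1, a basement membrane zone multiplexin, read 1106, 1388 and 2176 in osteocalcin, 2378, 1907 and 2128 in both, and 2920, 2969 and 2183 in neither colonies. The neither colonies lay above the osteocalcin colonies by as little as 2183 against 2176, with a difference of -0.74 in osteocalcin (SE 0.327, adjusted p = 0.639). Its chip B probe set overlapped between the types and followed the first with r = 0.2. Col26a1, which carries short collagen stretches, read 1073, 1785 and 1435 in osteocalcin, 1033, 1496 and 1353 in both, and 1782, 2420 and 2694 in neither colonies. All 3 both colonies lay below all neither colonies, with a difference of -0.72 (SE 0.325, adjusted p = 0.507), and types made up 66.4% of its variance. Col18a1, the source of endostatin, and the membrane collagen Col23a1 overlapped in all comparisons.

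No collagen probe set passed an adjusted p of 0.05 in any of the 3 comparisons or in the F test over the types. The same held for all 19312 probe sets tested (0% called). In the F test 2 genes (Col6a3, Col6a1) had an unadjusted p under 0.05, beside 7.06% of all probe sets. Between both and osteocalcin 16 of the 27 genes were higher and 11 lower, with a median difference of 0.30 against -0.01 over all probe sets tested. An unadjusted p under 0.05 was met by 2 genes (Col6a3, Col6a2), where 3.39% of all probe sets met it, and in 2 (Col6a3, Col3a1) the colonies did not overlap, where this held for 10.1% of all (4.6% with the both colonies higher, 5.49% lower). Between osteocalcin and neither 9 genes were higher and 18 lower, with a median of -0.12 against 0.03. Here 2 genes had an unadjusted p under 0.05 (Col6a3, Col15a1), beside 7.50% of all probe sets, and 1 did not overlap (Col15a1), beside 12.2% (6.34% with the osteocalcin colonies higher, 5.87% lower). Between both and neither 14 were higher and 13 lower, with a median of 0.06 against 0.01. An unadjusted p under 0.05 was found for 2 (Col6a1, Col26a1), beside 9.75%, and 3 did not overlap (Col9a3 higher, Col24a1 and Col26a1 lower), beside 14.6% (6.34% with the both colonies higher, 8.31% lower). Among 27 genes a single gene is a share of 3.70%. The collagen shares were thus under or about those over all probe sets, except for unadjusted p between both and osteocalcin, where 2 genes stood beside 3.39%. The comparisons share colonies, so that a high or low colony enters 2 of them.

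By class, between both and osteocalcin, 6 of 9 fibrillar genes were higher (median 0.40), 3 of 5 network genes (0.21), 3 of 6 FACIT genes (0.14) and 3 of 3 type VI genes (0.97). Between osteocalcin and neither, 1 of 9 fibrillar genes was higher (median -0.12), 3 of 5 network genes (0.01), 3 of 6 FACIT genes (0.04) and 1 of 3 type VI genes (-0.65). Between both and neither, 3 of 9 fibrillar (-0.10), 2 of 5 network (-0.04), 5 of 6 FACIT (0.41) and 3 of 3 type VI genes (0.59) were higher. None of these members passed the test.

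**Figure D2:**
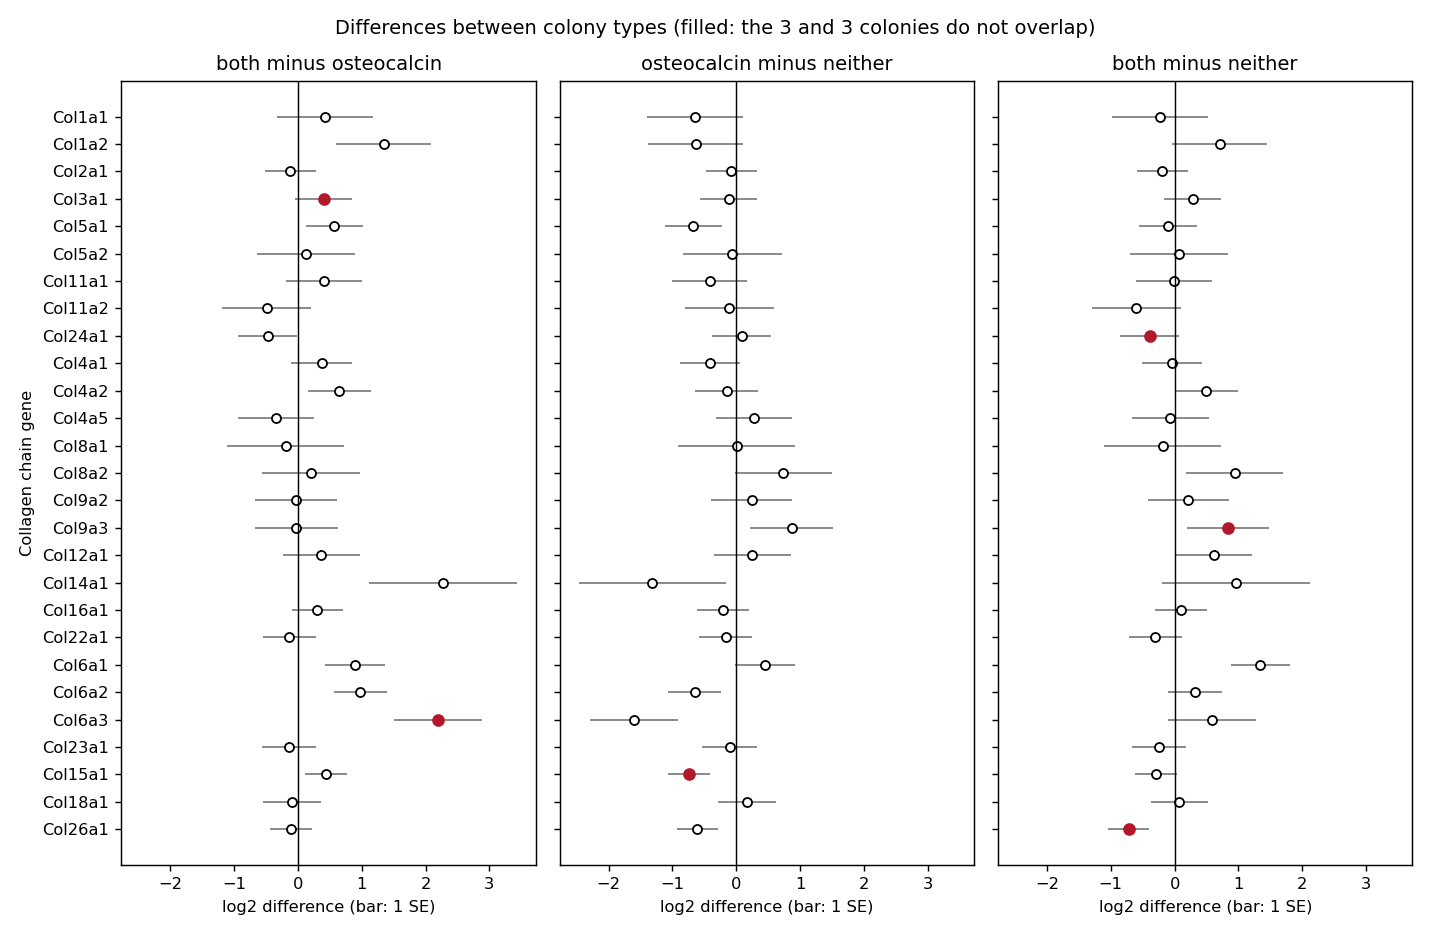
Difference of the log2 level between 2 colony types for the 27 tested collagen genes, 1 panel per comparison, with bars of 1 standard error. Filled points are the 2, 1 and 3 genes whose colonies do not overlap; the largest of them is Col6a3 at 2.19 between both and osteocalcin.

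Most of the variation of collagen transcripts lay among colonies of a type, as it did for the median probe set tested. The median gene had an SD of 0.81 over the 9 colonies, against 0.63 for all probe sets tested, and 11.8% of its variance lay between the types, against 24.4%. By class that median share was 8.84% for fibrillar, 10.6% for network, 11.4% for FACIT and 50.5% for type VI genes. With each gene centred on its own mean, the median deviation over the 27 genes was 0.78 in both I, 0.44 in both II and -0.72 in both III. It was 0.18, 0.34 and -0.42 in neither I to III and -0.10, -0.55 and -0.11 in osteocalcin I to III. Thus the highest and the lowest colony carried the same label. On chip A both III was run on another fluidics station than both I and both II (below). Colony and station cannot be told apart there. In both III 4 of 27 genes exceeded their own mean, in both I 23 and in both II 21. Neither II was the highest colony in 9 genes and both II in 6, while both III was the lowest in 9, osteocalcin II in 6 and neither III in 5.

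**Figure D3:**
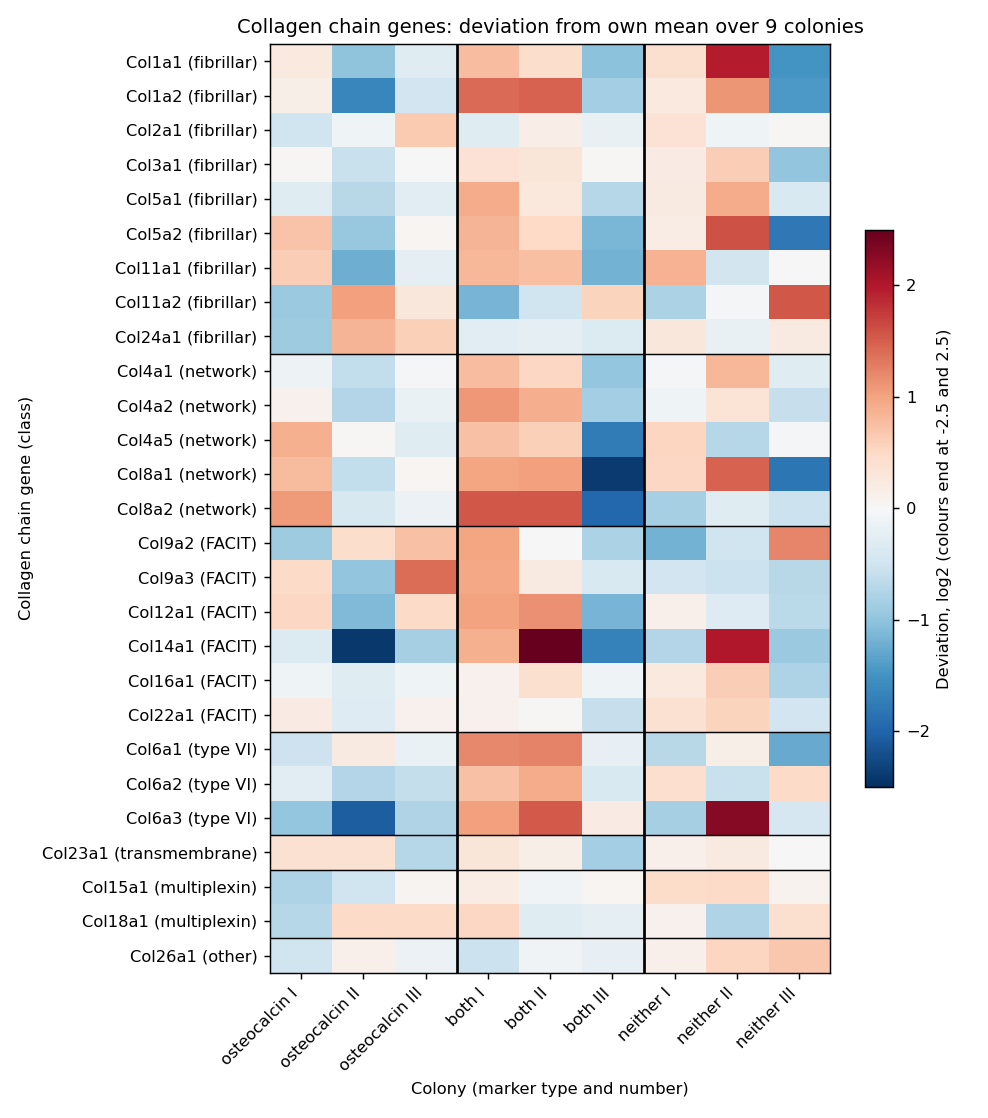
Log2 level of the 27 tested collagen genes in 9 colonies as the deviation from the mean of the gene, in rows by class and with lines between colony types. Red columns at both I and both II (medians 0.78 and 0.44) stand beside a blue column at both III (median -0.72).

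**Figure D4:**
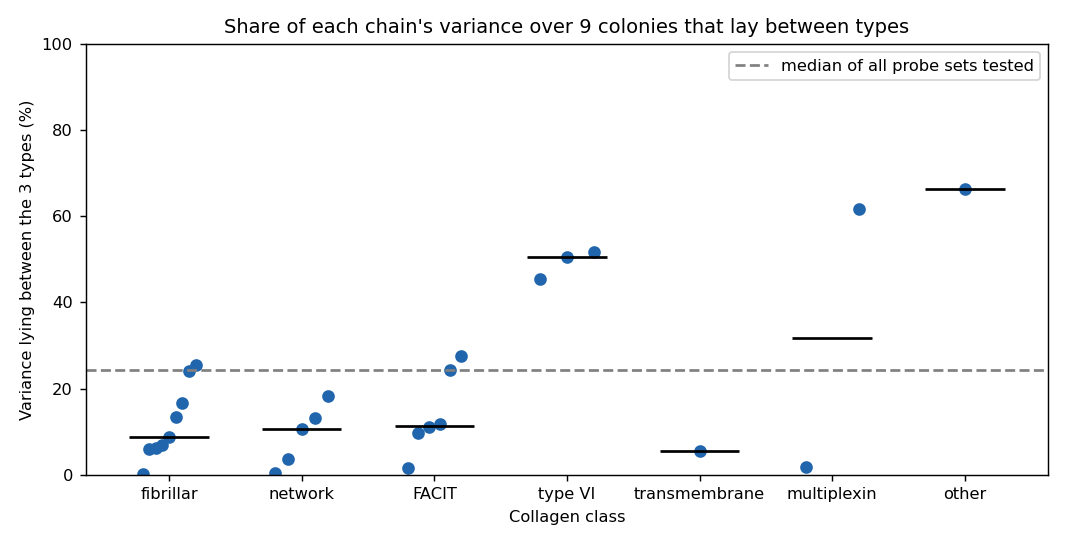
Percent of the variance of the log2 level over 9 colonies that lay between the 3 types, 1 point per tested collagen gene by class, with a bar at the class median and a dashed line at the median of all probe sets tested (24.4%). The 3 type VI genes lie between 45.4% and 51.7%, above the medians of the fibrillar, network and FACIT classes. Each point is the probe set counted for the gene, and the other tested ones of Col6a2 (1.11%) and Col6a3 (0.966%) are not shown.

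Both III decided several counts and was singled out after its low values were seen. Without it, the median difference between both and osteocalcin was 0.73. Of the 27 genes 15 did not overlap, all with the both colonies higher, beside 32.3% of all probe sets in either direction. Between both and neither the median was then 0.64 and 10 genes did not overlap (8 higher, 2 lower), beside 30.7%. With both III kept, the shares over all probe sets were 10.1% and 14.6%, since fewer colonies separate more easily. Still 0 collagen probe sets passed. Without neither II the medians were 0.30 between both and osteocalcin, -0.05 between osteocalcin and neither and 0.29 between both and neither. The arrays had been run on 2 fluidics stations, and on chip A station 1 held the osteocalcin colonies with both I and both II and station 2 held both III with the neither colonies. Within station 1, both I and both II exceeded osteocalcin by a median of 0.95 over the 22 chip A genes, 19 of them higher, and Col6a3 by 2.55. For the chip A genes this is the comparison without both III again, so it is no separate check. Within station 2, both III lay under the neither colonies by a median of -0.79, 3 of 22 genes higher, and Col6a3 by -0.13. On chip B, with 5 genes, the medians were -0.25 for both against neither I within station 1 and -0.06 for osteocalcin against neither II and III within station 2. On chip A osteocalcin and neither colonies shared no station, so type and station cannot be told apart in that comparison. The summed signal of the 5 smooth muscle markers was 63672 to 239242 in osteocalcin, 11056 to 144642 in both and 24308 to 113940 in neither colonies. Acta2, smooth muscle actin, read 18110, 3459 and 72388 in both I to III and 9789, 6164 and 43012 in neither I to III, high in both III and neither III, where most collagens were low. In osteocalcin I to III Acta2 read 13343, 48156 and 93287, although osteocalcin I and III had nearly the same collagen median. The part of such cells in the result was not tested.

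In 9 of the 27 genes the 3 highest signals were those of both I, both II and neither II, a pattern noticed in the values and given without a test. These were Col1a1, Col1a2, Col3a1, Col5a1, Col4a1, Col4a2, Col8a1, Col14a1 and Col6a3. The other tested probe sets of Col1a1, Col1a2, Col5a1 and Col14a1 showed it too, and those of Col4a1 and Col6a3 did not. How often the pattern occurs over all probe sets was not counted, so it cannot be called particular to collagens. Of the 6 tested proteoglycans and fibril-associated proteins, 3 showed the same colonies highest: Dcn, Fmod and Thbs2. Bgn was highest in both I and low in neither II (2746), Lum in osteocalcin I (32368) exceeded both I and neither II, and Fn1 was highest in neither I (111140). Decorin (Dcn) is a small proteoglycan that binds fibrils. It read 12183 in both I, 13949 in both II and 8577 in neither II against 65.4 to 1200 elsewhere. Fibromodulin (Fmod), a relative with the same ligand, read 19238, 27160 and 8692 there and 841 to 2346 elsewhere.

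Partner chains of a trimer were compared over the 9 colonies for the 9 pairs in which each chain was tested. Col1a1 and Col1a2 had r = 0.871 (exact permutation p = 0.00241, adjusted over the 9 pairs 0.0109) and rho = 0.883 (exact permutation p = 0.00308, adjusted 0.0138). Col4a1 and Col4a2 had r = 0.91 (exact permutation p = 0.0013, adjusted 0.0109) and rho = 0.9 (p = 0.00203, adjusted 0.0138). Col5a1 and Col5a2 had r = 0.803 (exact permutation p = 0.0109, adjusted 0.0328) and rho = 0.833 (p = 0.00827, adjusted 0.0248). This pair lost its call without any 1 of osteocalcin II, osteocalcin III, both II, both III, neither I or neither II, with an adjusted exact permutation p of up to 0.0786, and with quantile normalization (0.0543). Leaving out the 2 colonies farthest from the median of the first chain, r was 0.919, 0.976 and 0.655. As residuals after fluidics station the 3 values were 0.88, 0.928 and 0.835. The stations hold 5 and 4 colonies, too few for an r within each. Among all tested probe sets, 0.854% correlated more closely with Col1a1 than Col1a2 did, 0.088% more closely with Col4a1 than Col4a2 and 0.86% more closely with Col5a1 than Col5a2. For Col4a1 this was computed on its brighter probe set only. The other one followed the brighter with r = 0.21 and was not compared with Col4a2.

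The other pairs did not pass. Col8a1 and Col8a2 had r = 0.709 (exact permutation p = 0.0343, adjusted 0.0617; rho 0.717), which was 0.43 without the farthest colonies. Col11a1 and Col11a2 ran in opposite directions with r = -0.732 (exact permutation p = 0.0294, adjusted 0.0617; rho -0.733). Col11a2 exceeded the array median on 3 of 9 arrays, so its order rests on dim signals. The type VI chains had r = 0.514 for Col6a1 and Col6a3, 0.361 for Col6a2 and Col6a3 and 0.291 for Col6a1 and Col6a2, with adjusted p from 0.235 to 0.49 by the exact permutation test. Without both I and both II these were 0.155, -0.064 and -0.918, so the positive values rest on those colonies. Col9a2 and Col9a3 had r = 0.241 (exact permutation p = 0.522; rho 0.017).

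**Figure D5:**
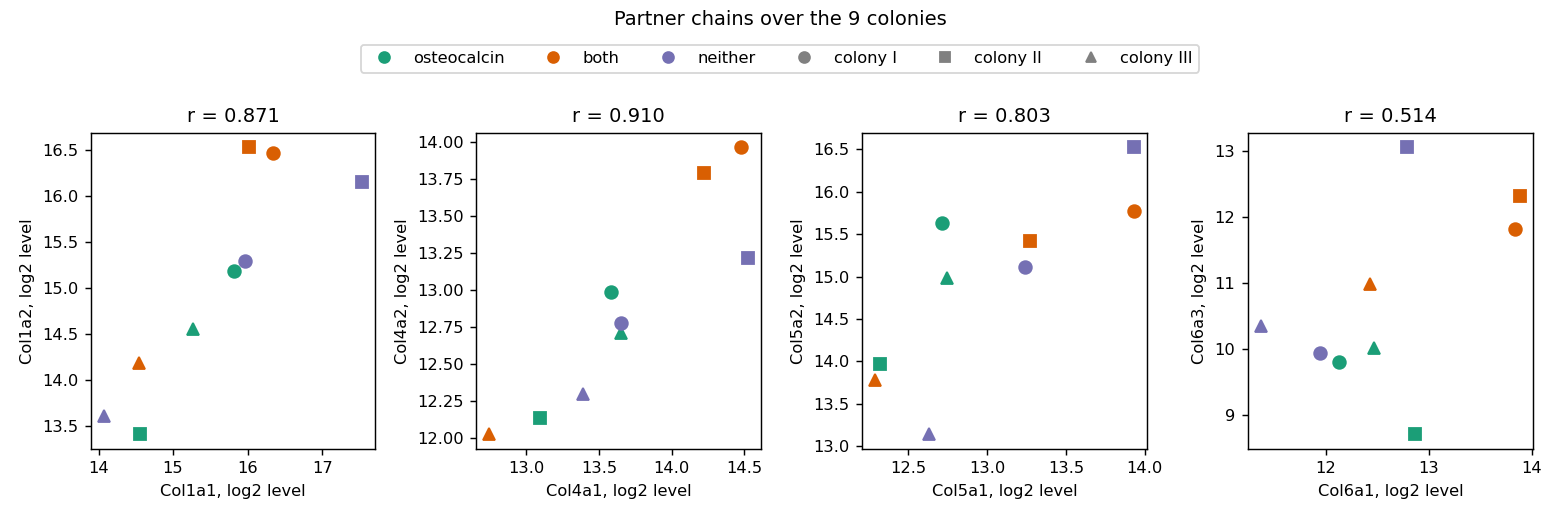
Log2 level of 1 chain against its partner in the 9 colonies, coloured by type and shaped by colony number, for types I, IV, V and VI. The points of Col1a1 with Col1a2 (r = 0.871) and Col4a1 with Col4a2 (r = 0.910) run along a line that crosses the types, and those of Col6a1 with Col6a3 (r = 0.514) scatter.

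The machinery that makes and remodels collagen was read from fixed lists, and 0 of its tested genes passed in any comparison. The enzymes and chaperones of hydroxylation, glycosylation and folding spread less over the colonies than the chains, with a median SD of 0.50 in 15 genes. Between both and neither 12 of these 15 were higher and between osteocalcin and neither also 12, medians 0.24 and 0.40. P4hb, the shared subunit of prolyl 4-hydroxylase, read 33831, 32351 and 33369 in osteocalcin, 34770, 33386 and 36273 in both, and 36969, 5594 and 10501 in neither colonies. It was even over 7 colonies and low in neither II and neither III, and differed by 1.40 between both and neither (adjusted p = 0.45). Serpinh1, the collagen chaperone HSP47, read 3434 and 3882 in the same pair and 8382 to 23070 elsewhere (1.35, adjusted p = 0.47). Neither II thus combined the highest signal of all on the counted Col1a1 probe set, though not on its second one, with the lowest P4hb and Serpinh1.

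Of the other lists, export and processing had 3 of 4 genes higher in both than in osteocalcin colonies (median 0.23), crosslinking 1 of 4 (-0.33) and receptors 4 of 5 (0.28). All 3 tested degradation genes were higher (median 0.79): Ctsk, the collagen-cleaving cathepsin K of osteoclasts, Mmp2, a gelatinase, and Mmp14, a membrane-bound collagenase. Ctsk read 9706, 12719 and 11651 in osteocalcin, 19892, 26226 and 12856 in both, and 5141, 5624 and 3624 in neither colonies. The 3 types did not overlap for Ctsk, which differed by 1.95 between both and neither (adjusted p = 0.175) and by 1.22 between osteocalcin and neither (adjusted p = 0.61). For Mmp2 and Mmp14 a second probe set gave -0.22 and -0.03 between both and osteocalcin, against 0.94 and 0.80. Collagen-binding proteoglycans and fibril-associated proteins varied more than any other list, with a median SD of 1.83 in 6 genes. Dcn differed by 2.42 between both and osteocalcin (adjusted p = 0.9998), and Bgn, the proteoglycan biglycan, by 2.48 between both and neither (adjusted p = 0.175).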

How the data were processed

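Labelled RNA of each of 9 colonies was read on an RAE230A and an RAE230B array. The authors deposited linear intensities, 1 MAS5 signal for each probe set, per the submitters' processing notes. The version of MAS5 was not given in the sources used. Every array was rescaled to a 2%-trimmed mean of 1500. The pseudocount was the median over arrays of the 25th percentile, and log2 values were computed here from the deposited intensities. After removal of 57 control probe sets per chip, a probe set was tested if it exceeded the array median on at least 3 arrays, which kept 9425 of 15923 on chip A and 9887 of 15333 on chip B. Gene names came from the platform annotation, and all 54 collagen probe sets matched RefSeq with 0 symbols changed. Of the 44 rat genes in RefSeq that fit the pattern, 7 have no probe set here.

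Each chip was fitted with limma 3.58.1 in R 4.3.3 on the 3 type means (6 residual degrees of freedom, intensity trend, two-sided), and p-values were adjusted over both chips by Benjamini-Hochberg. A gene with several probe sets was counted by its brightest one on chip A, or on chip B where chip A had none. Differences are printed for Col1a1, Col1a2, Col6a3 and up to 8 members with the smallest p among those whose colonies do not overlap, and for up to 3 genes of each other list; other genes given with a difference were chosen after their values were seen. Correlations used exact two-sided permutation of the 9 colonies. For 3 against 3 colonies the smallest exact permutation p is 0.1. The members and lists were chosen with earlier results of these data known. Each colony grew from its own cell, and separate cell preparations are not stated. The limma p-values weigh a difference of type means against the spread of colonies and do not cover a spread among preparations. The median SE of a difference was 0.497, which the number of arrays limits. The fit was tested on simulated data. Figures used Python 3.11.15 and matplotlib 3.10.9.

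Whether colony numbers pair colonies was checked by the correlation of their deviations from the type means: 9 of 18 same-number pairs exceeded 0.1, with a range of -0.15 to 0.325, and the numbers were not taken as pairs. Alternatives were the deposited scale, quantile normalization, other pseudocounts and filters, array weights, no trend, robust eBayes, station or replicate blocks, the compared types alone, the mean over probe sets and leaving out each colony or the rescaled array.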

Additional observations from a re-analysis of the deposited data

How the results depend on the processing

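Under the alternatives, 193 summary values stayed near the main ones and 26 moved. Some of the 193 could not move. Medians and overlap counts do not depend on the intensity trend, robust eBayes or a replicate block. Nor do they depend on a colony outside the compared types. A median counted as near within 0.530, the pooled SD of the colony median within types, whatever its sign. A count did so within a fixed ratio. Without the filter, for example, the median between both and neither was -0.066 and counted as near. Among values of single genes and pairs, 419 kept their direction and side of the threshold. Of the single genes and pairs 9 values reversed, 9 newly passed the threshold and 7 no longer did. No call was made for a collagen probe set under any setting but array weights, which gave 2 between both and osteocalcin and 1 in the F test. Fitted with the replicate number as a block, 0 collagen probe sets were called. The medians of 0.305, -0.116 and 0.065 could not change there, because each type holds every number once. With signals as deposited the median was 1.42 between both and osteocalcin and -1.34 between osteocalcin and neither, where all probe sets moved to 0.443 and -0.460. With station as a block the medians were -1.86 (osteocalcin and neither) and -0.636 (both and neither), Col1a2 turned to -0.834 and Col6a3 to -0.129 between both and neither. For chip A genes, Col1a2 and Col6a3 among them, the blocked values between both and neither rest on both III alone. Those between osteocalcin and neither rest on the step from both I and both II to both III, since these types shared no station. Array weights turned Col1a1 to 0.160 and the mean over its probe sets to 0.123 in that comparison.

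Counts of genes without overlap moved from 2 to 1 (quantile normalization, the filter over all 9 arrays) or 4 (no filter) between both and osteocalcin. Between osteocalcin and neither they moved from 1 to 2 (deposited scale, quantile normalization, no filter) or 3 (without the rescaled array). Leaving out 1 colony, these counts ran from 2 to 15 for both and osteocalcin (5 without osteocalcin I beside 25.1% of all probe sets, 4 without osteocalcin III beside 17.7%), 1 to 8 for osteocalcin and neither (8 without neither III beside 22.8%) and 3 to 10 for both and neither (5 without neither II beside 31.5%, or without neither III beside 24%). The medians ran from 0.026 to 0.733, -0.480 to -0.034 and -0.205 to 0.636. Col1a1 ran from -1.54 to 0.196 (osteocalcin and neither) and -1.12 to 0.613 (both and neither), each reversed without neither II, the latter also without both III (0.319). Col6a3 ran from 0.000 (without neither I) to 1.55 between both and neither. Leaving out 1 colony, r ran from 0.834 to 0.924 for type I and 0.886 to 0.964 for type IV partners, past the threshold each time, and from 0.716 to 0.887 for Col5a1 and Col5a2, with adjusted p up to 0.0786. That of Col6a1 and Col6a2 ran from -0.027 to 0.575.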
